A study of Mus musculus with 4 samples.

Results

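The genes described here are the killer lectin receptors and the cytotoxic granule genes of mouse lung group 2 innate lymphoid cells (ILC2s). They were taken by name from the authors' table: symbols beginning with Klr and a letter from a to k, the granzymes from Gzma to Gzmn, and Prf1, Nkg7 and Ncr1. This gave 42 of the 38697 genes in the table, of which 38 were protein-coding and 4 were pseudogenes. The cells came from lungs of bleomycin-treated C57BL/6 mice, bleomycin being a drug that injures the lung and leads to fibrosis. The wild-type (WT) group was R5/+, and the knockout (KO) group was R5/+ with 2 floxed copies of Nrp1 (Nrp1f/f), the gene of the co-receptor neuropilin-1. Both groups carried R5, an allele of the Il5 locus that reports Il5 expression and drives Cre, so deletion was limited to cells that had used that locus. Each group had 2 samples, each a pool of 3 to 4 mice. The sources used here give no age, dose or time after bleomycin.

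Killer lectin receptors are C-type lectin-like proteins of the lymphocyte surface, best known from natural killer (NK) cells. Some carry inhibitory motifs and restrain the cell on meeting MHC class I or cadherins, while others pair with the adaptors DAP10 or DAP12 and activate it. Cytotoxic granules hold perforin, which opens the target membrane, and granzymes, serine proteases that enter and kill the target. Mature ILC2s are known for KLRG1, a receptor of E-cadherin, and are not known as killers.

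All values come from the comparison that the authors made between KO and WT. A level is the baseMean, the mean normalized count of a gene over the libraries. A difference is a log2 fold change, its standard error (SE) beside it, written here so that positive means higher in KO. Values for single libraries were not assigned to samples, so the spread within a genotype cannot be shown. Where a genotype's mean is given, it was derived from the baseMean and the fold change on the assumption that both genotypes weigh equally. A difference is called when its adjusted p is under 0.05, which the authors' deposited table gives for the 19193 genes whose baseMean was 6.71 or higher. Of the 42 genes, 21 have an adjusted p and 21 lie below that level. Nothing in the labels says whether the pools differ in day or batch, so whether the p-values allow for such differences is not known. Because the values for single libraries match no sample label, which libraries entered the test was not checked. The p-values speak only for the libraries tested.

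As a check of the labels, the targeted gene Nrp1 was lower in KO by the authors' deposited table, at -1.18 ± 0.21 on the log2 scale (adjusted p = 1.27e-04, baseMean 3771). This gene-level value does not isolate the floxed part. All 12 ILC2 markers had a row, 10 of them with a baseMean of at least 1000, led on this scale by the transcription factor Rora at 41644. The 11 markers of NK cells and ILC1 with a row had a summed baseMean of 671, led by the integrin Itga1 at 325, while Eomes and Tbx21, their defining transcription factors, stood at 3.39 and 5.59. Of 11 T cell markers, the receptor chain gene Trbc1 was the most abundant at 2938, with Trbc2 at 2525 and Cd3g at 963, and Cd3e, Cd4 and Cd8a stood at 51.8, 13.8 and 3.84. Mast cell and basophil markers were led by Cpa3 at 413 and Hdc at 396, with Mcpt4 at 4.87 and Mcpt8 at 3.71. B cell markers were led by Cd79b at 67.3.

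One gene held most of the signal of the whole set. Klrg1 had a baseMean of 3152 and made up 85.2% of the summed level of the 42 genes. Per kb of exon it reached 2229, against 95.2 for Nkg7, 39.3 for Klrb1b, 21.4 for Gzmb, 14.5 for Gzma, 13.7 for Klrk1 and 13.5 for Gzmm. The remaining 35 genes lay between 0.570 (Klrc1) and 10.3 (Gzmc) per kb. Klrg1 was thus the one gene of the set within the range of the ILC2 markers per kb, from 155 (Il13) to 11556 (Areg), and its baseMean lay above that of 98.2% of genes. Only 4 of the 42 genes had a baseMean of at least 50, the other 3 being Klrk1, Klrb1b and Nkg7.

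**Figure D1:**
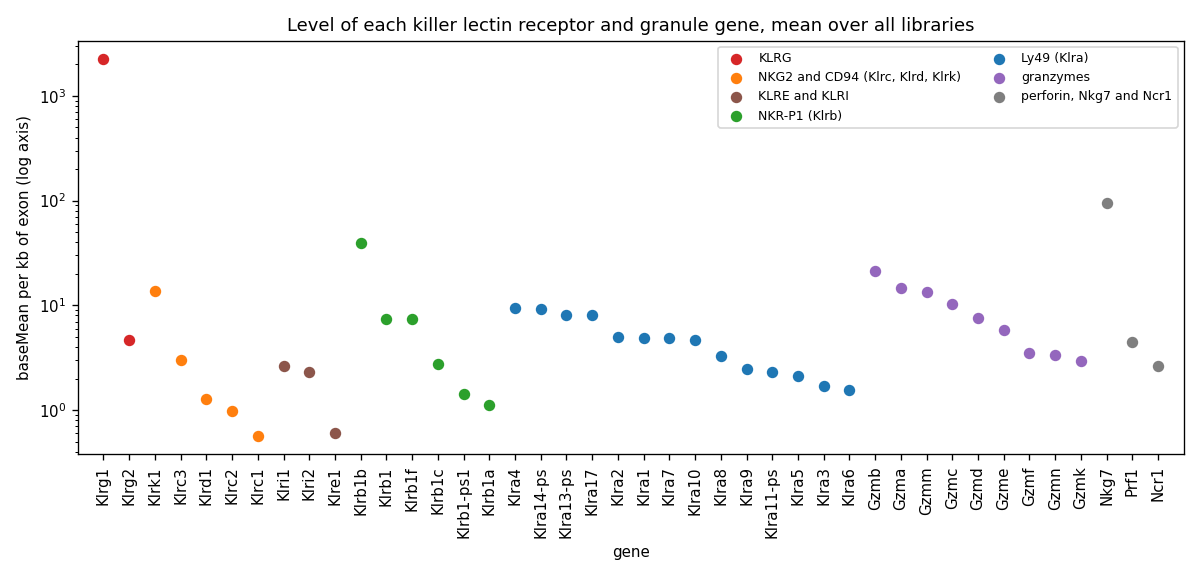
Level of each gene as baseMean per kb of exon on a log axis, grouped and coloured by family, with 1 point per gene for the mean over all libraries. Klrg1 stands alone at 2229, Nkg7 follows at 95.2, and Klrc1 is lowest at 0.570.

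Not one of the 42 genes differed between KO and WT at an adjusted p under 0.05 per the authors' deposited table, whose headings are those of DESeq2. Over all genes with an adjusted p, 0.552% passed, 0.453% as higher and 0.0990% as lower in KO. The smallest adjusted p in the set was 0.157, for Gzmd. At an unadjusted p under 0.05, 3 of the 42 genes were higher in KO (Gzmd, Klra14-ps and Klra7) and 0 were lower. Over all 38697 genes the unadjusted threshold was passed by 8.39%, of which 6.43% were higher and 1.96% lower, so 3 of 42 is near the background.

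Most fold changes of the set were positive, and so were those of most other genes with few reads. Of the 42 genes, 38 had a positive log2 fold change, with a median of 2.50 beside 1.15 for all 38697 genes, of which 70.1% were positive. Below the tested range the log2 fold change was positive for 20 of 21 genes of the set and for 86.0% of all genes. From there to a baseMean of 20 it was positive for 15 of 16 and for 88.1% of all genes, and from 20 to 100 for 3 of 4 and 73.8%. In the same order of ranges, the median log2 fold change was 3.75, 2.09 and 0.22 for the set. For all genes it was 2.27, 1.79 and 0.50. At a baseMean of 1000 and above 7.10% of all genes were positive, and the median log2 fold change was -0.25. The sign thus moved with abundance across the whole table, and the part of abundance in the fold changes of this set was not tested.

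**Figure D2:**
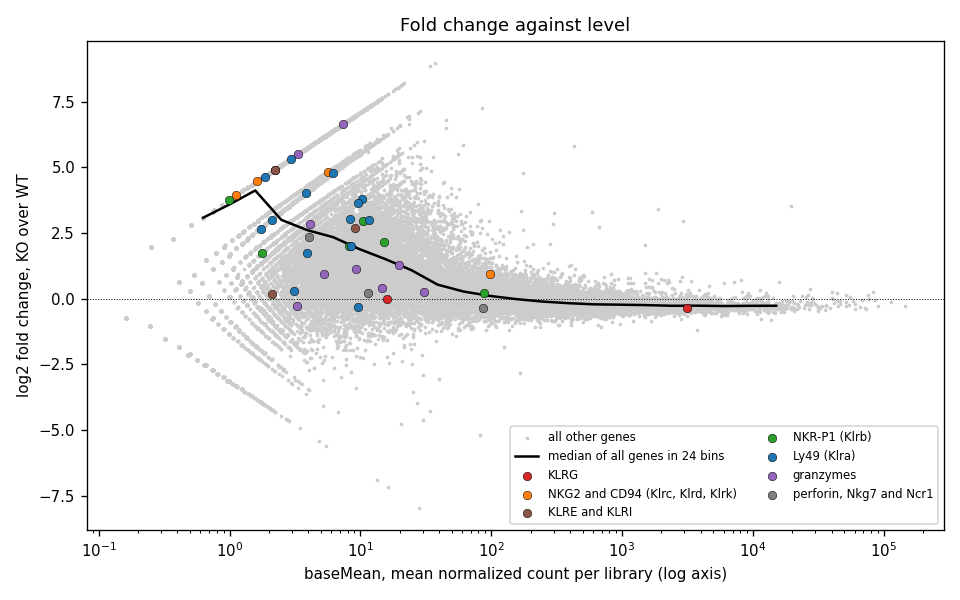
Log2 fold change, KO over WT, against baseMean on a log axis for every gene (grey), with the set coloured by family and the median of all genes in bins of baseMean as a black line. The coloured points at low baseMean lie on both sides of the falling line, and below the tested range their median is above that of all genes. Klrg1 sits at -0.36 on the line's flat right end.

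Klrg1 (ENSMUSG00000030114, chromosome 6, 122270596 to 122282882, minus strand, mm10) encodes the inhibitory E-cadherin receptor that marks mature ILC2s. Its derived means were 3549 normalized counts in WT and 2756 in KO. The log2 fold change was -0.36 ± 0.22 (95% interval -0.79 to 0.06), with an unadjusted p of 0.0913 and an adjusted p of 0.458 per the authors' deposited table. Its distance from the median of genes whose baseMean was 1000 or more was -0.11, less than its SE. With this SE, a log2 difference of 0.79 in either direction would have reached the p of the least significant called gene. Its ligands are cadherins, and Cdh1 (E-cadherin), at a baseMean of 292, stood at -0.03 ± 0.33 per the authors' deposited table. Of the other listed cadherin genes, Cdh2 had a baseMean of 246 and stood in that table at -0.48 ± 0.40. Cdh4, at a baseMean of 31.6, stood in that table at 2.98 ± 1.08 (adjusted p = 0.159) and was not called. Klrg2, the other gene with this family name, had a baseMean of 16.0 and a log2 fold change of 0.00 ± 1.29 in that table.

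Klrk1 (ENSMUSG00000030149) encodes NKG2D, the activating receptor for stress-induced ligands of the RAE-1, H60 and MULT1 families. It lies on chromosome 6, 129610323 to 129623864, minus strand. Derived means were 67.4 in WT and 129 in KO, and the log2 fold change was 0.94 ± 0.53 (95% interval -0.10 to 1.98, adjusted p = 0.437) per the authors' deposited table. The difference was not called, and the interval reaches from a slight fall to a rise of 1.98 on the log2 scale. Of the NKG2D ligand genes, Ulbp1 (MULT1) had a baseMean of 116 and H60b one of 76.9, at 0.70 ± 0.54 and -0.11 ± 0.60 per the authors' deposited table. Hcst, which encodes the NKG2D adaptor DAP10, was abundant at 1087 and stood at -0.21 ± 0.21 in that table. Tyrobp, the DAP12 adaptor gene, had a baseMean of 137 and a log2 fold change of 0.42 ± 0.53 in the same table.

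The other genes of the NKG2 group gave almost no reads. Klrd1 encodes CD94, the partner chain of the NKG2A, NKG2C and NKG2E proteins of Klrc1, Klrc2 and Klrc3. Their baseMean values were 1.64, 1.13, 5.64 and 2.23 per the authors' deposited table, all below the tested range. The fitted log2 fold changes lay between 3.95 and 4.91 with SEs between 2.50 and 4.84, and all 4 intervals span 0. These 4 derived WT means were under 1 normalized count, so the fold changes are fitted quantities and not measured folds. Qa-1, the MHC-like ligand of CD94 and NKG2 pairs, is encoded by H2-T23, at a baseMean of 3709 and a log2 fold change of -0.42 ± 0.18 (adjusted p = 0.259) in that table. Per kb of exon, H2-T23 stood at 1284 and Klrd1 at 1.28, so the ligand's transcript was present at a far higher level than that of the receptor chain.

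The Klrb genes encode the NKR-P1 receptors, some of which bind Clec2 proteins. Klrb1b, an inhibitory receptor for Clec2d, led them with a baseMean of 87.7. Its derived means were 81.4 in WT and 93.9 in KO, and its log2 fold change was 0.21 ± 0.55 (95% interval -0.87 to 1.28, adjusted p = 0.909) per the authors' deposited table. Klrb1c, which encodes the NK1.1 antigen of C57BL/6 NK cells, had a baseMean of 8.22 and stood at 2.02 ± 1.88 in that table. Klrb1f, a receptor for Clec2i, had a baseMean of 15.1 and stood in that table at 2.15 ± 1.39, and Klrb1 had 10.5 and 2.96 ± 1.80. Klrb1a and the pseudogene Klrb1-ps1 lay below the tested range, at 1.77 and 0.995. None of the 6 intervals left out 0. Clec2d and Clec2i, the ligand genes next to the Klrb genes, had baseMean values of 87.0 and 168 and stood at -0.42 ± 0.57 and 0.10 ± 0.41 per the authors' deposited table.

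The Ly49 receptors, encoded by Klra genes, are the mouse receptors for classical MHC class I and vary between inhibitory and activating forms. All 14 Klra rows had a baseMean between 1.73 (Klra6) and 11.6 (Klra4), and 13 had a positive log2 fold change per the authors' deposited table. Their derived means summed to 27.9 normalized counts in WT and 139 in KO over the 14 genes. Of the 14 derived WT means, 6 were under 1 normalized count, so these sums rest on fitted values. Of all genes, 86.0% were positive below the tested range and 88.1% from there to a baseMean of 20. The median log2 fold changes of all genes in these ranges were 2.27 and 1.79. The pseudogene Klra14-ps stood in that table at 3.81 ± 1.86 (unadjusted p = 0.0406, adjusted p = 0.336), with derived means of 1.37 and 19.3. Klra7, which encodes the inhibitory receptor Ly49G, stood in that table at 4.79 ± 2.42 (unadjusted p = 0.0477), below the tested range. Klra8, the gene of Ly49H, which recognises a cytomegalovirus protein, stood in that table at 1.75 ± 2.47. Klra4 (Ly49D), Klra17 and Klra13-ps stood at 3.00 ± 1.61, 3.65 ± 1.97 and 3.03 ± 1.80, with adjusted p of 0.403, 0.407 and 0.460 per the authors' deposited table. Klra1, at a baseMean of 8.55, stood in that table at 1.99 ± 1.70 (adjusted p = 0.647). Klra5, Klra10, Klra11-ps and Klra3 lay below the tested range, at baseMean values of 2.97, 3.84, 1.85 and 2.10, and stood in that table at 5.33 ± 3.75, 4.02 ± 2.94, 4.65 ± 4.51 and 3.00 ± 3.96. Klra6 and Klra9, also below it, stood in that table at 2.67 ± 4.26 and 0.31 ± 2.74. All of these 7 intervals span 0. Klra2 was the one gene of the family with a negative value in that table, at -0.32 ± 1.57. The classical MHC class I genes H2-D1 and H2-K1 were among the most abundant ligand genes, at baseMean values of 73937 and 51429, and stood at -0.37 ± 0.16 and -0.29 ± 0.15 (adjusted p of 0.231 and 0.403) per the authors' deposited table.

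The lesser-known receptors Klre1, Klri1 and Klri2 had baseMean values of 2.10, 2.23 and 9.03. Klri2, the one with an adjusted p (0.645), stood at 2.69 ± 2.28 per the authors' deposited table.

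Position grouped these receptors. From Klrb1a to Klra1, 27 of the Klr genes lie within 1.78 Mb of chromosome 6 (128609227 to 130386874, mm10), 23 of them on the minus strand. This is the region known as the NK gene complex. All 27 had a positive log2 fold change per the authors' deposited table, 2 of them at an unadjusted p under 0.05, and 0 were called. Of all genes below the tested range 86.0% were positive, as were 88.1% of those from there to a baseMean of 20, and 8.39% of all genes passed the unadjusted threshold in either direction. Klrg1, Klrg2 and Klra2 lie on the same chromosome outside this stretch, and Klra2, farther along at 131219223 to 131247362, had a negative value. The 27 share libraries and, in part, sequence, so they are not 27 independent observations.

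**Figure D3:**
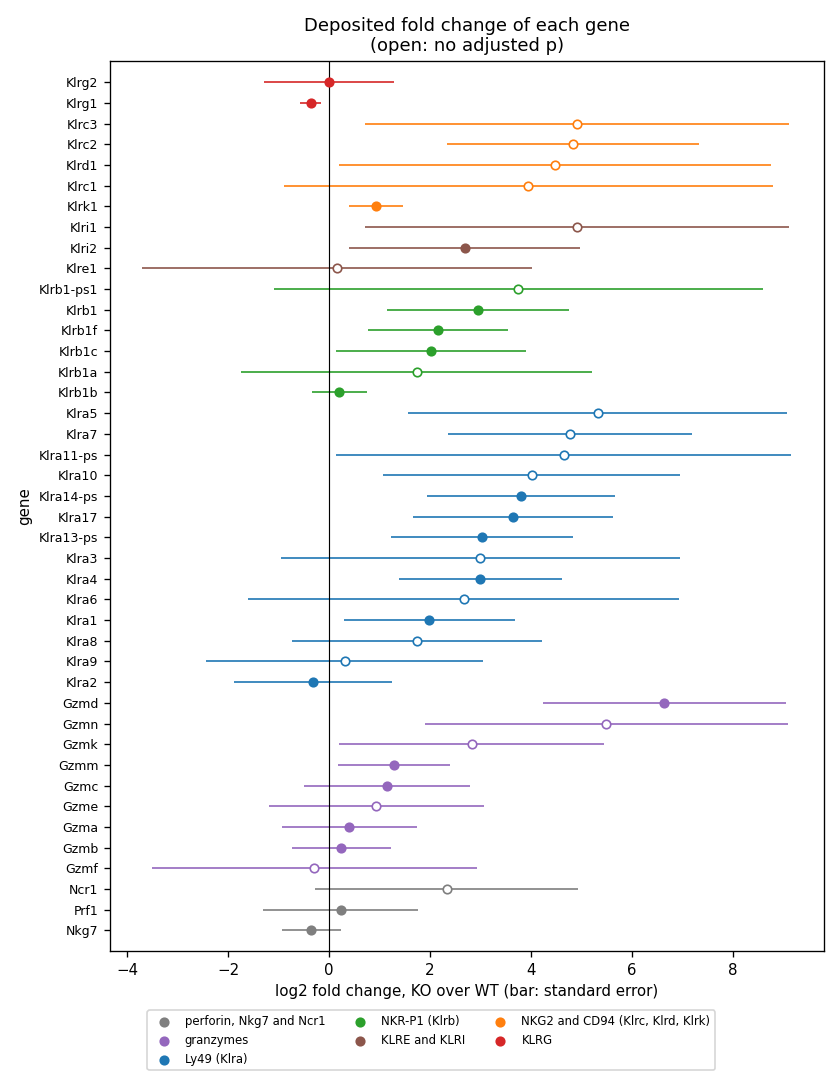
Log2 fold change, KO over WT, of each gene with its SE as a bar, coloured by family, with open points for genes without an adjusted p. Klrg1 has the shortest bar (0.22) and lies at -0.36, while the Klrc, Klrd1 and most Klra points lie to the right with bars above 1.5.

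Among the granzymes, Gzmb had the highest level, followed per kb by Gzma and Gzmm. Gzmb, which cleaves after aspartate and starts target cell apoptosis, had derived means of 28.1 in WT and 33.3 in KO. Its log2 fold change was 0.24 ± 0.98 (95% interval -1.68 to 2.16, adjusted p = 0.947) per the authors' deposited table. Gzma, a tryptase-like granzyme, had derived means of 12.6 and 16.6 and stood in that table at 0.40 ± 1.34 (adjusted p = 0.932). Gzmm, at 11.6 and 28.2, stood at 1.29 ± 1.11 (adjusted p = 0.652) in that table. All 3 intervals span 0. Gzmk, at a baseMean of 4.09, stood in that table at 2.83 ± 2.62 with no adjusted p.

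Gzmd had the largest log2 fold change of the set, 6.65 ± 2.40 (95% interval 1.94 to 11.4), with an unadjusted p of 0.00563 and an adjusted p of 0.157 per the authors' deposited table. Its baseMean was 7.37, close to the lowest tested level. The derived means were 0.145 in WT and 14.6 in KO, so the fold is a fitted value and no measured ratio. At this SE a log2 difference of 8.74 would have been needed for a call. Gzmd is 1 of 6 granzyme genes of the set on chromosome 14 (56117626 to 56262260, minus strand, mm10), with Gzmb, Gzmc, Gzme, Gzmf and Gzmn. Gzmg, which shares transcript windows with Gzmd and Gzmn, fits the name rule but had no row under that symbol, so no value can be given. Gzme and Gzmn stood at 0.94 ± 2.13 and 5.50 ± 3.60, and Gzmc and Gzmf at 1.15 ± 1.64 and -0.29 ± 3.23 in that table.

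Perforin transcript was scarce. Prf1 had derived means of 10.6 in WT and 12.4 in KO, and its log2 fold change was 0.23 ± 1.53 (adjusted p = 0.969) per the authors' deposited table. Nkg7, which encodes a granule membrane protein that aids degranulation, had derived means of 97.5 and 76.5. It stood at -0.35 ± 0.59 (95% interval -1.51 to 0.81, adjusted p = 0.845) per the authors' deposited table. Ncr1, the gene of the NK receptor NKp46, had a baseMean of 4.02 and stood in that table at 2.34 ± 2.61, below the tested range.

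Low levels limited what could be detected. Klrk1, Klrb1b and Nkg7 would have been called at log2 differences of 1.93, 1.99 and 2.15, and Gzmb at 3.56. Among the 27 Klr genes with a baseMean under 50, the SE was 2.50 at the median and reached 4.85. Derived WT means were under 0.15 for 9 of the 42 genes, 21.4%, against 24.8% of all genes, and derived KO means for 0 of the 42. Across the table this was also one-sided, with 9580 genes in WT and 202 in KO. In addition, 21 of the 42 rows carried the same baseMean, fold change and SE to the last digit as at least 1 other gene, against 46.1% of all genes. Klrc3 shared its values with 172 other genes, Klri1 among them. Of the genes with an unadjusted p under 0.05, Gzmd shared its values with 1 other gene and Klra7 with 2. The 21 rows had baseMean values between 0.995 (Klrb1-ps1) and 9.54 (Klra17).

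Stretches shared with other genes add uncertainty for the low genes. Each 50-base and 100-base window of a gene's GENCODE M21 transcripts was looked up in the transcripts of every other gene, on either strand. Klrg1, Klrk1, Nkg7, Gzmb, Gzma, Gzmm and Prf1 were among the 15 genes with no shared 50-base window. The other 27 shared some, 16 of them over 10% of their 50-base windows, and 16 genes shared 100-base windows. Klra10 (39.8%), Klrc1 (38.6%) and Klrc3 (36.3%) shared the most at 50 bases. Klrb1b shared 22.3% of its 100-base windows with Gm44511, an overlapping model on the same strand that joins it to Klrb1c. The sources used here state neither the read length nor the treatment of reads with several matches, so values of genes that share windows are uncertain.

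**Figure D4:**
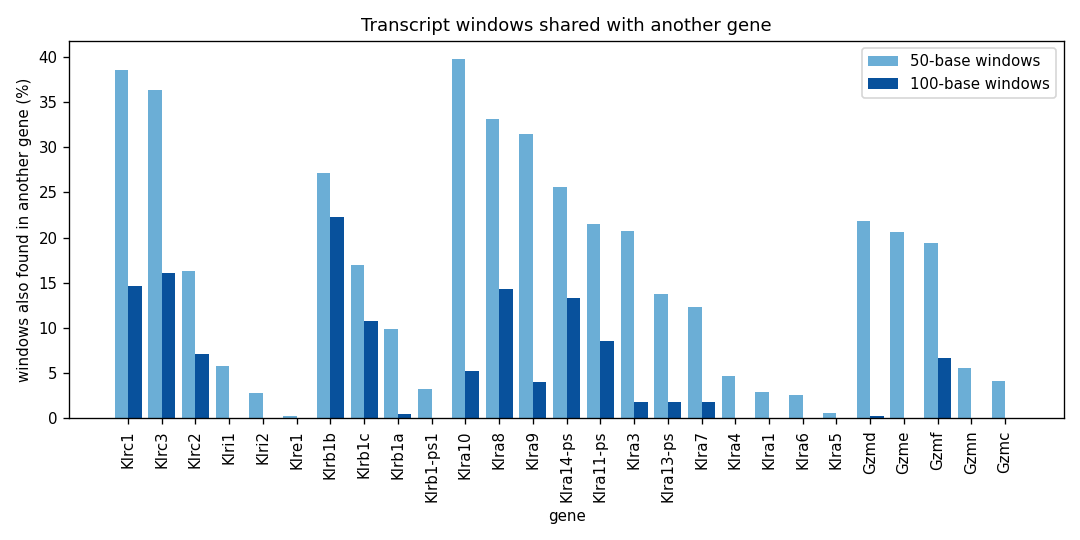
Percentage of 50-base (light bars) and 100-base (dark bars) transcript windows of each gene that also occur in another gene, for the 27 genes with any. Klra10 is highest at 50 bases with 39.8%, and Klrb1b at 100 bases with 22.3%.

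The 3 genes with an unadjusted p under 0.05 are among the 27 that share windows. For each, the stretch below was taken around the longest run that it shares with 1 chosen gene inside 1 exon. The stretches thus show the closest part of each pair only. Each stretch is 100 bases of GENCODE M21 transcript from 1 exon of each gene, 5′ to 3′ on the minus strand of mm10. Capitals mark bases that differ within the pair. Gzmd (chr14:56130308-56130407) and Gzme (chr14:56118359-56118458) match at 98 of 100 bases of coding exon 4, with a run of 96 identical bases.
Gzmd: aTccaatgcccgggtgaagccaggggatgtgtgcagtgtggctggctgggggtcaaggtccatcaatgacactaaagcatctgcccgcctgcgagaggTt
Gzme: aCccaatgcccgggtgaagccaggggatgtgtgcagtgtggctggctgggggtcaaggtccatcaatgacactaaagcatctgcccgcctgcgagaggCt
Klra7 (chr6:130218936-130219035) and the pseudogene Klra13-ps (chr6:130291209-130291308) differ at 1 base of 100.
Klra7: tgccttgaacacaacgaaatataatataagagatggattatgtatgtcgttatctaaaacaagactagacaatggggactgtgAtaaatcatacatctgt
Klra13-ps: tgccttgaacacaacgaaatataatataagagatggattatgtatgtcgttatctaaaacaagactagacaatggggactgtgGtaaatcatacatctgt
Klra14-ps (chr6:130160643-130160742) and Klra8 (chr6:130128055-130128154) are identical over the 100 bases, inside a shared run of 112.
Klra14-ps and Klra8: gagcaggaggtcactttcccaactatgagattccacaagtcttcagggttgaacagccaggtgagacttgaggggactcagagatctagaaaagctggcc
Over whole transcripts the sharing was smaller. Gzmd shared 21.9% of its 50-base windows with other genes, Klra7 12.3% and Klra14-ps 25.6%, and at 100 bases the shares were 0.231%, 1.83% and 13.3%.

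Of the genes that act around these receptors and granules, 0 were called, and 48 of the 63 with a row stood higher per kb than Gzmb, the highest granzyme. Over all genes with an adjusted p, 0.552% were called. At an unadjusted p under 0.05, 6.43% of all genes were higher and 1.96% lower in KO. At a baseMean of 1000 and above, 7.10% of all genes had a positive log2 fold change. Of 12 adaptor and signalling genes, all had an adjusted p, 4 were lower and 1 higher at an unadjusted p under 0.05, and the median log2 fold change was -0.42. Inpp5d, the SHIP1 phosphatase that inhibitory receptors recruit, had a baseMean of 5698 and stood at -0.42 ± 0.16 (adjusted p = 0.180) per the authors' deposited table. Vav1 and Zap70, which signal below activating receptors, stood in that table at -0.46 ± 0.18 and -0.42 ± 0.17, and the phosphatase Ptpn11 at -0.53 ± 0.27. Each of these 4 genes was within 0.28 of the median log2 fold change of genes whose baseMean was 1000 or more. The 1 higher gene, Sh2d1a, had a baseMean of 17.6 and stood at 4.38 ± 1.61 (adjusted p = 0.162) per the authors' deposited table. Of 17 ligand genes with a row, 13 had an adjusted p and 0 were called, 2 being higher and 2 lower at an unadjusted p under 0.05.

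Of 13 genes of granule loading and release, 0 were called and 2 were lower at an unadjusted p under 0.05. The shares over all genes were 0.552% called of those with an adjusted p, and 1.96% lower and 6.43% higher at the unadjusted threshold. Srgn, the proteoglycan core on which granule proteases are stored, had a baseMean of 18854 and stood at -0.12 ± 0.14 (adjusted p = 0.748) per the authors' deposited table. Unc13d and Stxbp2, which prime and fuse granules, stood in that table at -0.41 ± 0.19 and -0.40 ± 0.21 at baseMean values of 1857 and 1571. Ctsw, a cathepsin of cytotoxic lymphocytes, was also abundant, at 1622, and stood at -0.57 ± 0.24 (adjusted p = 0.238) in that table. Of 6 serpins that inhibit granule proteases, 0 were called, and 1 was higher and 1 lower at an unadjusted p under 0.05. The lower one, Serpina3g, stood at -0.57 ± 0.24 (adjusted p = 0.256) and Serpinb6a at -0.39 ± 0.24 per the authors' deposited table. The higher one, Serpinb9b, had a baseMean of 13.4 and stood in that table at 3.37 ± 1.65 (adjusted p = 0.337). Serpinb1a led with a baseMean of 3938 at -0.16 ± 0.16, and the granzyme B inhibitor Serpinb9 had 1478 at -0.21 ± 0.25 per the authors' deposited table. The inhibitor's transcript thus stood at 423 per kb, against 21.4 for Gzmb.

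Among death receptor ligands, 0 of 4 were called, beside 0.552% of all genes with an adjusted p. At an unadjusted p under 0.05, 1.96% of all genes were lower. Tnf stood at 0.31 ± 0.20, Tnfsf10 (TRAIL) at -0.23 ± 0.26 and Lta at -0.06 ± 0.34 per the authors' deposited table, and Fasl had a baseMean of 15.1. Of 11 transcription factors of cytotoxic lymphocytes, 0 were called and 1, Stat4 (-0.49 ± 0.23, adjusted p = 0.304), was lower at an unadjusted p under 0.05 per the authors' deposited table. Id2, which all innate lymphoid cells need, led at a baseMean of 43668 and stood at -0.07 ± 0.14 in that table. Runx3 had a baseMean of 1468 and stood in that table at -0.35 ± 0.21, and Zeb2 488 and -0.49 ± 0.26. The NK-defining factors Eomes and Tbx21 had no adjusted p. In these whole-sample libraries, fewer cells of a type and less RNA per cell cannot be told apart.

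The markers of other cells that can express this set did not pass as higher. Over all genes with an adjusted p, 0.453% were called higher and 0.0990% lower in KO. Of 11 NK and ILC1 markers 0 were called, with derived sums of 599 in WT and 743 in KO. Of 11 T cell markers, Cd3g was called lower and none higher, and the derived sums were 7793 and 5654. Most of both sums came from Trbc1 (3401 and 2475), Trbc2 (2820 and 2230) and Cd3g (1271 and 654). The log2 fold change was negative for 7 of the 11 and positive for 4, all 4 at a baseMean under 20. Derived means of these 4 were 8.17 and 19.4 for Cd4, 0.145 and 7.54 for Cd8a, 4.82 and 30.5 for Cd8b1, and 9.73 and 19.9 for Cd5. Whether the number of T cells differed was not tested. Of 8 mast cell and basophil markers 0 were called, with derived sums of 851 and 821. Of 5 B cell markers 0 were called, and the derived sums were 109 and 212. Itga1, Trbc1, Cpa3 and Cd79b, the most abundant of each list, stood at 0.53 ± 0.43, -0.46 ± 0.18, 0.22 ± 0.34 and -0.06 ± 0.62 per the authors' deposited table. The part of these cells in the low counts of killer receptors and granzymes was not tested.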

How the data were processed

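RNA was measured in 4 samples of sorted lung ILC2s, 2 per genotype. Per the labels' protocols, the SMART-Seq HT kit gave full-length cDNA, and no strand marking is described. The submitters' processing notes name HISAT2, Cufflinks and the build mm10 but state no role for them. The authors deposited a mean normalized count (baseMean, a signal averaged over libraries), a log2 fold change with its log2 standard error, a score (the test statistic) and p-values, raw and adjusted, per the file headers. A further 8 columns of values per library carry codes that match no sample label and were not used, so edgeR, depth per library and leave-one-out fits were not run.

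The statistic equals fold change over error within 5.35e-08, and Benjamini-Hochberg adjustment over 19193 genes matches the deposited adjusted p within 3.96e-05. The sign was turned because WT comes first in the table's name. If the numerator were KO, all directions would turn, Nrp1 included. Intervals are normal 95% intervals. The log2 difference needed for a call is the SE times 3.64, the statistic of the least significant called gene. GENCODE M21 (mm10) gave positions and exonic lengths for 38427 identifiers. Fold changes were also centred on genes with a baseMean of at least 1000, and that step was tested on simulated data. The simulation gave every gene the same shift, whatever its level. In the real data the median log2 fold change moved with level, so the simulation does not speak for genes of low level. Python 3.11.15, pandas 2.3.3 and scipy 1.17.1 were used. The genes and lists were chosen with earlier results of these data known. The genes named are those of the set, Nrp1 and, from each list of related genes, the most abundant and up to 3 others with the smallest p at a baseMean of at least 50. From marker lists the most abundant is given. Ligands of a named receptor, its adaptors and defining markers were added after their values were seen. So were Sh2d1a, Serpinb9b and further T cell markers.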

Additional observations from a re-analysis of the deposited data

How the results depend on the processing

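No gene of the set was called as deposited (0 of 21), when adjusted over every gene (0 of 42), with a baseMean of at least 50 (0 of 4), when centred on abundant genes (0 of 21) or at an adjusted p under 0.1 (0 of 21). At an unadjusted p under 0.05 the count was 3, by construction of the looser threshold. The smallest adjusted p in the set ranged from 0.115 to 0.621 over the settings that adjust. The median log2 fold change of the 42 genes was 2.50, and 2.75 when centred. It was -0.073 over the 4 most abundant genes (baseMean at least 50), a choice that leaves out the 38 genes of low level. Centring was the one setting here that could turn the sign of a single gene. It subtracts a median of -0.25 and so raises every value, which means only the 4 genes with a negative log2 fold change could turn. These 4 kept their sign. The 21 genes with no deposited adjusted p had none when centred either, so only the adjustment over every gene tested them. No paired analysis was possible because the columns of values per library could not be matched to samples, and for the same reason no replicate was left out and DESeq2 was not rerun.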

Other observations

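Other genes of the NK gene complex were measured beside the receptors. Of the 17 protein-coding genes within the Klrb1a to Klra1 stretch that are not of the set, 14 had a positive log2 fold change and 0 were called per the authors' deposited table. Their median baseMean was 14.8. Of all genes, 86.0% were positive below the tested range, 88.1% from there to a baseMean of 20 and 73.8% from 20 to 100. Over all genes with an adjusted p, 0.552% were called. Of the 17, Clec2g was the one in that table at an unadjusted p under 0.05, at 3.64 ± 1.71 and a baseMean of 12.7. Over all genes, 8.39% passed that threshold. Cd69, an early activation antigen and tissue-retention protein, was by far the most abundant at a baseMean of 27131, or 4168 per kb, and stood at 0.38 ± 0.44 (adjusted p = 0.757) in that table. Gabarapl1, an autophagy gene upstream of Klrd1 in the same stretch, had a baseMean of 407 and stood in that table at 0.01 ± 0.29 (adjusted p = 0.992). High and near-absent transcripts thus lay side by side within the complex.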
